A study of Mus musculus with 13 samples.

Results

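The ciliated and neuroendocrine mimetic genes of the thymus were followed in bulk RNA-seq of the CD45- stroma of mouse thymus at 2 months of age, before and after sublethal total body irradiation (TBI). The members were listed by name as markers, by a rule that holds no measured value, although earlier results of these data were known when the list was made. There were 10 of them among the 53379 genes of the count table, 5 ciliated (Foxj1, Trp73, Dynlrb2, Ccdc39 and Dnah5) and 5 neuroendocrine (Chga, Chgb, Snap25, Neurod1 and Insm1). All animals were wild-type C57BL/6 mice. The steady-state group (n = 4) was not irradiated, and it pools columns named as PBS controls of days 1, 4 and 7. The other groups were taken 1, 4 and 7 days after TBI (n = 3 each). Thymic cells were depleted of CD45+ cells and sorted as CD45-, so that each library is a mixture of epithelium, fibroblasts, endothelium and rarer stroma. In such mixtures, fewer cells of a type and less RNA per cell cannot be told apart.

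Medullary thymic epithelial cells (mTECs) display tissue-restricted antigens to developing T cells, and some of them do so as mimetic cells. Mimetic cells switch on the master regulators and the effector genes of a peripheral cell type, such as a multiciliated airway cell or a hormone-secreting neuroendocrine cell. In the airway, Foxj1 drives the genes of the motile axoneme, whereas in gut, pancreas and adrenal medulla Insm1 and Neurod1 act in the differentiation of endocrine cells that pack granins such as Chga and Chgb into dense-core vesicles. These roles are given as background.

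The 13 libraries held between 15721866 and 52056896 counts assigned to genes, with a median of 44078906. Levels are given as CPM, that is, gene counts scaled to a common library size after TMM normalization. The summed thymic epithelium markers (Epcam, H2-Aa, Krt5, Krt14, Krt8) ran from 731 to 2590 CPM at steady state, from 1531 to 2329 at day 1, from 2453 to 3176 at day 4 and from 538 to 995 at day 7. Epithelium, fibroblast and endothelium markers were thus present in every library. The thymocyte markers were not absent from these CD45- libraries. Their sum (Ptprc, Cd3e, Cd8a, Rag1, Lck, Ptcra) ran from 142 to 489 CPM at steady state, from 71.3 to 91.2 at day 1, from 16.1 to 22.8 at day 4 and from 118 to 2855 at day 7.

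Of the members, 2 passed the test between a pair of conditions, and both were transcription factors that were lower at day 7 than at day 1, the ciliated regulator Foxj1 and the neuroendocrine regulator Insm1. The test was the quasi-likelihood F-test of edgeR, adjusted by the Benjamini-Hochberg method over 19984 genes, and a gene was called at an adjusted p of 0.05 or less. Of the 10 members, 9 had enough counts to be tested, and Neurod1 did not. Between day 7 and day 1, 2 of 9 members were called, where 8.13% of all genes tested were. The other 5 comparisons called 0 of 9 by the same edgeR test, where the share of all genes tested was 2.35% between day 1 and steady state, 0.29% between day 4 and steady state, 0.005% between day 7 and steady state, 1.43% between day 4 and day 1 and 3.9% between day 7 and day 4. The test for a difference among any of the 4 conditions also called 0 of 9, against 6.66% of all genes. At an unadjusted p of 0.05 or less, these comparisons held 1 member (Dynlrb2) between day 1 and steady state, 1 (Chga) between day 4 and steady state and 3 (Foxj1, Trp73 and Insm1) between day 7 and steady state. They held 0 between day 4 and day 1, 2 (Foxj1 and Insm1) between day 7 and day 4 and 3 (Foxj1, Dynlrb2 and Insm1) among any of the 4 conditions. Of all genes tested, the share at that unadjusted p was 17.2%, 13% and 13.5% at days 1, 4 and 7 against steady state, 13.7% between day 4 and day 1, 18.7% between day 7 and day 4 and 24% among any of the 4 conditions, so that 1 of 9 members is close to the share of all genes. DESeq2, run as an alternative, called 2 members between day 7 and steady state, 2 between day 7 and day 4, 2 among any of the 4 conditions, 3 between day 7 and day 1 and 0 in the other comparisons. The share of all genes that DESeq2 called was not computed. Its counts, here and below, can therefore not be set beside those of all genes.

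**Figure D1:**
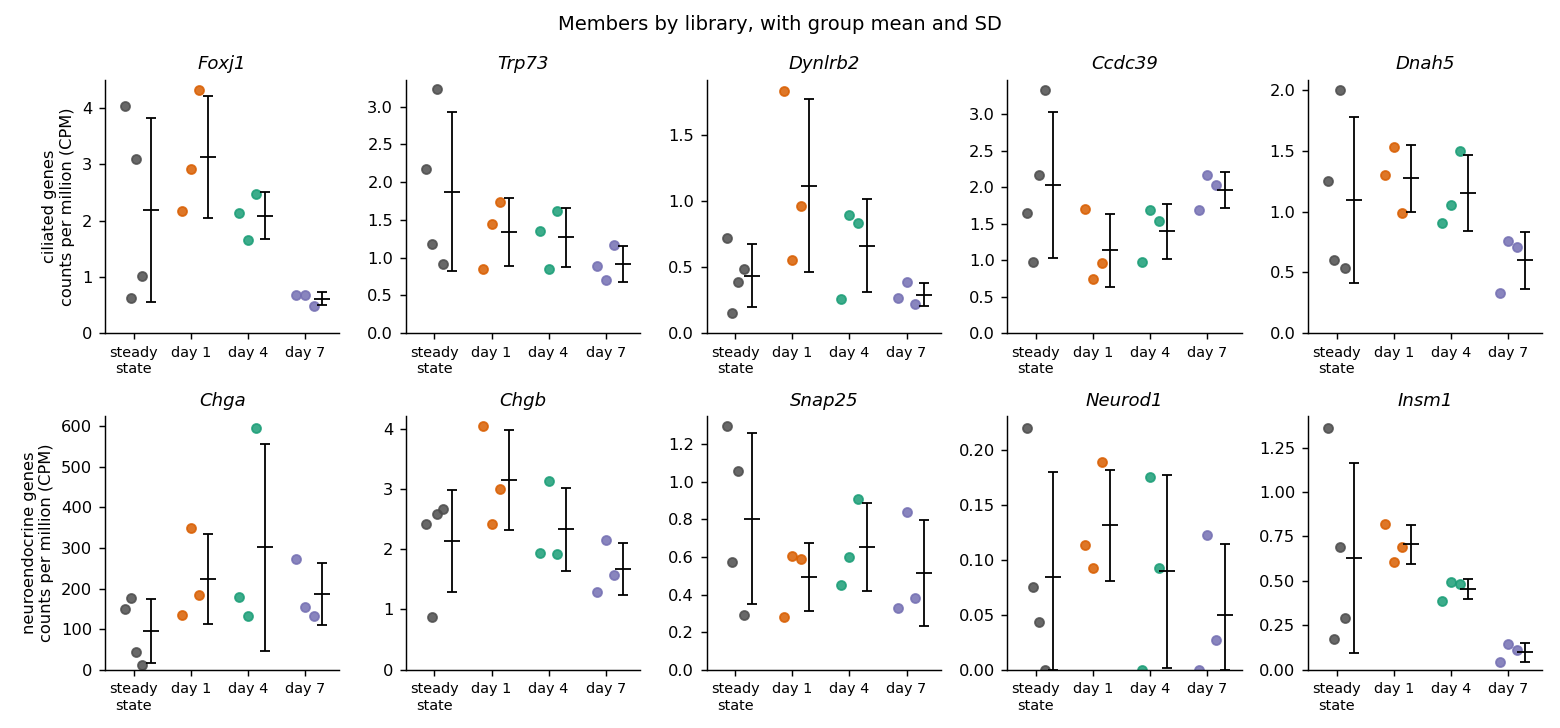
CPM of the 10 members (vertical axes, from 0) in each library, grouped by condition (horizontal axes; 4 libraries at steady state and 3 at each day), with the group mean and SD as bars cut at 0. Foxj1 and Insm1 sit lower in all 3 day 7 libraries than in all day 1 and day 4 libraries, while Chga spreads from 12.3 to 595 CPM.

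Among the ciliated members, the regulators come first. Foxj1 (ENSMUSG00000034227, chromosome 11, 116330704 to 116335399, minus strand, GRCm38), a forkhead transcription factor needed for motile cilia, had 4.04, 0.625, 3.10 and 1.02 CPM in the steady-state libraries. It had 2.18, 2.93 and 4.31 CPM at day 1, 2.13, 1.65 and 2.48 at day 4 and 0.677, 0.676 and 0.488 at day 7. The steady-state libraries overlapped every later group, since PBS day 4 replicate 2 and PBS day 7 replicate 2 were low and the other PBS libraries high. The day 7 libraries lay below every day 1 and every day 4 library. Foxj1 fell from day 1 to day 7, with a log2 fold change of −2.35 (SE 0.613, adjusted p = 0.0347), which put the day 7 level at 0.196 times that of day 1. Against steady state the day 7 value was −1.84 (SE 0.580, adjusted p = 0.162), and against day 4 it was −1.76 (SE 0.605, adjusted p = 0.130), by the same edgeR test with Benjamini-Hochberg adjustment. The earlier days gave log2 fold changes from steady state of 0.51 (day 1) and −0.08 (day 4).

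Trp73 (ENSMUSG00000029026, chromosome 4, 154056253 to 154140208, minus strand) encodes p73, a relative of p53 that acts above Foxj1 in multiciliated cells. It had 2.17, 1.18, 3.23 and 0.920 CPM at steady state, 0.848, 1.44 and 1.74 at day 1, 1.36, 0.843 and 1.61 at day 4 and 0.882, 0.697 and 1.17 at day 7. All of these groups overlapped. Its log2 fold change from steady state to day 7 was −1.04 (SE 0.477, adjusted p = 0.362) in edgeR with Benjamini-Hochberg adjustment, and from day 1 to day 7 it was −0.56 (SE 0.503, adjusted p = 0.554). Of its exonic bases, 5.06% are shared with the antisense gene Trp73os. The counting was stated with default settings only, so that reads of the pair are not separated by strand.

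The axonemal members were Dynlrb2, Ccdc39 and Dnah5. Dynlrb2 (ENSMUSG00000034467, chromosome 8, 116504974 to 116515915, plus strand) encodes a light chain of the roadblock family of dynein motors. Its RefSeq promoter window (GRCm38.p6, chr8:116504765-116505064, plus strand, 250 bases before to 50 after the start site) is shown because it holds the letters GTTGCC, part of the X-box that RFX factors bind in promoters of ciliary genes, 51 bases before the start. These letters are in capitals.
Dynlrb2: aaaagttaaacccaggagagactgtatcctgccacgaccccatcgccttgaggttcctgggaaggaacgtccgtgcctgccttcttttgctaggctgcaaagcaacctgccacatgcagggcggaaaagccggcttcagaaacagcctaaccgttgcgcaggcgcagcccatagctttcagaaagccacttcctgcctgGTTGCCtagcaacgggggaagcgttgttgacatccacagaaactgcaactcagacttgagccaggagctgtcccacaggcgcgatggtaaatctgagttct
In the count data, Dynlrb2 had 0.724, 0.150, 0.387 and 0.484 CPM at steady state, 1.84, 0.557 and 0.963 at day 1, 0.258, 0.896 and 0.833 at day 4 and 0.267, 0.389 and 0.217 at day 7. Its highest value was in day 1 replicate 1, and every day 7 library lay below every day 1 library. With edgeR and Benjamini-Hochberg adjustment, the log2 fold change was 1.36 (SE 0.576, adjusted p = 0.249) between day 1 and steady state and −1.94 (SE 0.639, adjusted p = 0.0811) between day 7 and day 1. Neither passed the threshold in edgeR, although the second did in DESeq2, at −1.99 (adjusted p = 0.0220). The libraries held between 4 and 65 counts of Dynlrb2.

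Ccdc39 (ENSMUSG00000027676, chromosome 3, 33812362 to 33844310, minus strand) encodes part of the ruler that sets the repeat along the ciliary axoneme. It had 1.64, 0.975, 2.17 and 3.34 CPM at steady state, 1.70, 0.743 and 0.963 at day 1, 0.968, 1.69 and 1.54 at day 4 and 1.68, 2.17 and 2.03 at day 7. No groups were separated, and Ccdc39 was the ciliated member with an estimate above 0 from day 1 to day 7, at a log2 fold change of 0.78 (SE 0.467, adjusted p = 0.339) in edgeR with Benjamini-Hochberg adjustment. A share of 16.9% of its exonic bases overlaps Ttc14. Dnah5 (ENSMUSG00000022262, chromosome 15, 28203752 to 28472052, plus strand), a heavy chain of the outer dynein arm that powers the ciliary beat, had 1.25, 0.600, 2.00 and 0.533 CPM at steady state, 1.30, 1.53 and 0.984 at day 1, 0.904, 1.05 and 1.5 at day 4 and 0.328, 0.758 and 0.705 at day 7. Its day 7 libraries were below all those of days 1 and 4 and overlapped those of steady state. The edgeR log2 fold change of Dnah5 was −1.08 (SE 0.535, adjusted p = 0.240) between day 7 and day 1 and −0.89 (SE 0.504, adjusted p = 0.516) between day 7 and steady state, after Benjamini-Hochberg adjustment.

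As a group, the ciliated members had a median log2 fold change from steady state of 0.19 at day 1, −0.08 at day 4 and −0.89 at day 7, where the median of all genes tested was −0.10, −0.13 and 0.00. Between day 7 and day 1 their median was −1.08, against 0.05 for all genes. At day 7 all 5 estimates against steady state were below 0 and none of the 5 was called.

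**Figure D2:**
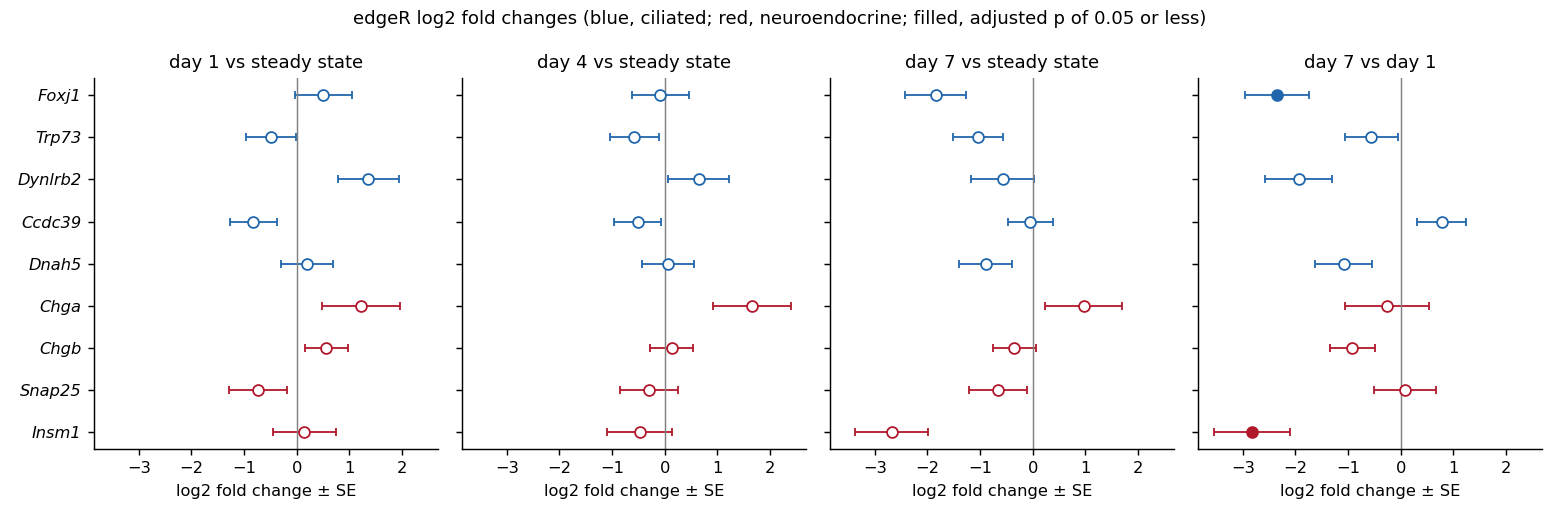
Log2 fold change (horizontal axes, with SE as bars) of the 9 members tested in 4 comparisons, from edgeR, with ciliated genes in blue and neuroendocrine genes in red and genes called at an adjusted p of 0.05 or less filled. Only Foxj1 (−2.35) and Insm1 (−2.82) are filled, both between day 7 and day 1.

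Among the neuroendocrine members, the transcription factors were at low level. Insm1 (ENSMUSG00000068154, chromosome 2, 146221921 to 146225020, plus strand), a zinc finger factor of endocrine differentiation, had 1.36, 0.175, 0.689 and 0.291 CPM at steady state and 0.820, 0.604 and 0.691 at day 1. It had 0.387, 0.492 and 0.481 CPM at day 4 and 0.0410, 0.143 and 0.108 at day 7. Among the days after TBI the groups were ordered without overlap, with day 1 above day 4 and day 4 above day 7, and all day 7 libraries were also below all steady-state ones. Insm1 fell from day 1 to day 7, with a log2 fold change of −2.82 (SE 0.725, adjusted p = 0.0325) and a day 7 level of 0.141 times that of day 1. It was −2.68 (SE 0.697, adjusted p = 0.124) between day 7 and steady state and −2.20 (SE 0.725, adjusted p = 0.113) between day 7 and day 4 in the same edgeR test with Benjamini-Hochberg adjustment. The difference between day 4 and day 1 was −0.62 (SE 0.652, adjusted p = 0.716). The day 7 values rest on 2, 7 and 4 counts, and those of day 1 on 29, 13 and 33.

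Neurod1 (ENSMUSG00000034701, chromosome 2, 79452521 to 79456751, minus strand), a basic helix-loop-helix factor of endocrine and neuronal cells, could not be tested. It had 10, 3, 2 and 0 counts in the steady-state libraries, 4, 2 and 9 at day 1, 0, 10 and 5 at day 4 and 0, 6 and 1 at day 7. With 3 counts or fewer in 7 of the 13 libraries, a difference was not detectable at this depth.

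The 2 members called between day 7 and day 1 did not keep the call when any 1 of the 6 libraries of those days was left out. In those fits the log2 fold change of Foxj1 ran from −2.56 to −2.05 (adjusted p from 0.0622 to 0.108) and that of Insm1 from −3.26 to −2.45 (adjusted p from 0.0617 to 0.0889), by edgeR with Benjamini-Hochberg adjustment.

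Markers of mature mTECs were lower at day 7 together with both genes. The summed mature mTEC markers (Aire, Fezf2, Cd80, Tnfrsf11a, Cd40) ran from 28.6 to 230 CPM at steady state, from 53.1 to 86.4 at day 1, from 35.7 to 47.1 at day 4 and from 14.9 to 22.9 at day 7. All 5 mature mTEC markers and all 5 thymic epithelium markers had log2 fold changes below 0 between day 7 and day 1, with medians of −2.01 and −1.61, and 1 of each 5 was called (Cd80 and Krt14). With the epithelial marker level as a covariate, chosen after seeing the data, the estimate from day 1 to day 7 was −0.59 for Foxj1 (adjusted p = 0.603) and −1.41 for Insm1 (adjusted p = 0.399) in edgeR with Benjamini-Hochberg adjustment. This covariate, a mean log2 level, ran from 7.92 to 8.59 at day 1 and from 6.37 to 7.30 at day 7. These days did not overlap in it, so that the adjusted estimates rest on extrapolation. The markers of cortical epithelium did not follow the pattern of the mature mTEC markers from day 1 to day 7. Their sum (Psmb11, Prss16, Ly75, Foxn1, Ccl25) ran from 413 to 1573 CPM at steady state and from 72.8 to 797 at day 1. It ran from 791 to 2225 CPM at day 4 and from 389.7 to 785 at day 7. Against steady state and against day 4, all 5 were below 0 at day 7, with medians of −0.68 and −1.43 and 0 called. From day 1 to day 7, 4 of the 5 markers had estimates above 0 and 0 were called by edgeR, with 0 at an unadjusted p of 0.05 or less. From day 1 to day 4 the sums of both the thymic epithelium and the cortical markers had higher medians. The thymic epithelium markers were mixed, with 3 of 5 above 0 and 2 below, while all 5 cortical markers were above 0. Of the mature mTEC markers 4 of 5 were below 0, and Insm1 also had lower values. In each of these 3 lists 0 were called by edgeR. All 6 thymocyte markers rose from day 1 to day 7. Tags of unstated meaning in the column names (k3, kk or neither) were not spread evenly over the days, since every day 7 library held k3 or kk. A further part of the names, m0, occurred in every day 7 library and in no other. It cannot be told apart from day 7 and was not part of the tag family. With the tag family as a covariate, also chosen after seeing the data, the value was −1.64 for Foxj1 (adjusted p = 0.112) and −2.24 for Insm1 (adjusted p = 0.120).

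Across the 13 libraries, log2 (CPM + 0.5) of Foxj1 and Insm1 rose and fell with that of the mature mTEC markers. For Foxj1 Pearson's r was 0.894 (permutation p = 2e-05, adjusted p = 0.00044) and Spearman's rho was 0.962 (p = 2e-05, adjusted p = 0.00066). For Insm1, r was 0.934 (p = 1e-05, adjusted p = 0.00033) and rho was 0.929 (p = 1e-05, adjusted p = 0.00066). The value of 1e-05 is the smallest that 100000 resamples can give, and p-values were adjusted over 66 relations by Benjamini-Hochberg. The libraries were permuted regardless of condition, so that differences shared between conditions enter these p-values. Without the 2 libraries farthest from the median of the markers, r was 0.926 and 0.891. Within conditions, over deviations from the condition means, r was 0.924 for Foxj1 and 0.900 for Insm1. At steady state this relation ran along the tags. PBS day 1 replicate 2 and PBS day 7 replicate 1, with neither k3 nor kk, had 230 and 88.2 CPM of the markers. PBS day 4 replicate 2 (k3) and PBS day 7 replicate 2 (kk) had 28.6 and 30.8 CPM, and less of both genes. The part of the tags in these correlations was not tested. Of the other members, Trp73 passed the adjusted threshold with these markers (r = 0.693, adjusted p = 0.0427, rho = 0.714, adjusted p = 0.0375, permutation tests, and r = 0.744 without the 2 farthest). With the thymic epithelium markers, r was 0.903 for Foxj1 (permutation test, adjusted p = 0.00132, rho = 0.813, 0.858 without the 2 farthest) and 0.800 for Insm1 (adjusted p = 0.00858, rho = 0.720, 0.731 without the 2 farthest). For Chga, r with the mature mTEC markers was 0.0057 and rho was 0.0934 (permutation p = 0.985 and 0.764, adjusted p = 0.998 and 0.854).

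**Figure D3:**
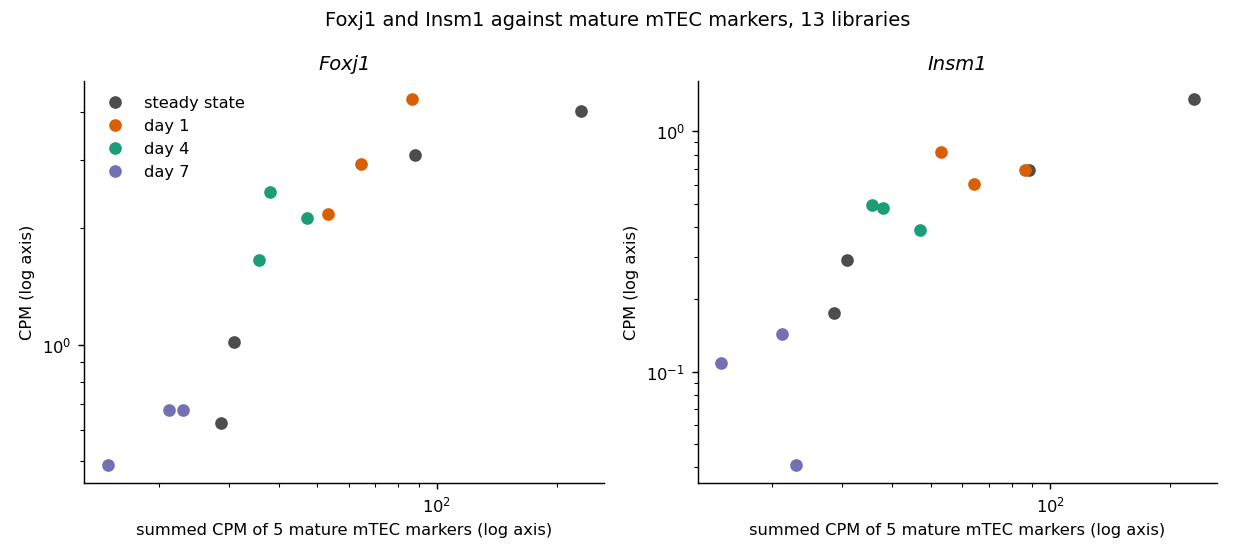
CPM of Foxj1 and Insm1 (vertical log axes) against the summed CPM of 5 mature mTEC markers (horizontal log axes), with 1 point for each of the 13 libraries and the condition in colour. The 3 day 7 libraries, with 14.9 to 22.9 CPM of markers, lie at the lower left in both panels, and the steady-state libraries span most of the range.

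The granins encode the matrix proteins of dense-core secretory vesicles. Chga (ENSMUSG00000021194, chromosome 12, 102554969 to 102565028, plus strand) encodes chromogranin A, and Chgb (ENSMUSG00000027350, chromosome 2, 132781278 to 132795079, plus strand) encodes chromogranin B. Their RefSeq promoter windows (GRCm38.p6, chr12:102554691-102554990 and chr2:132781392-132781691, both plus strand) are shown because both hold letters of a cyclic AMP response element near the start site. In capitals are TGACG and TATAAA for Chga, 44 bases before and 5 bases after the start that RefSeq gives, and TGACGTCA for Chgb, 72 bases before the start.
Chga: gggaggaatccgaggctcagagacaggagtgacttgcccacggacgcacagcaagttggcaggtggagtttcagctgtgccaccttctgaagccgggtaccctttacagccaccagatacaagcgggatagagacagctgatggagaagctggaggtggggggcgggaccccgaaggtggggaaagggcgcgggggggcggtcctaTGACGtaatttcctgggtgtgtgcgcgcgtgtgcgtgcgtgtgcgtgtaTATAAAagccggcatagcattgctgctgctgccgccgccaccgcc
Chgb: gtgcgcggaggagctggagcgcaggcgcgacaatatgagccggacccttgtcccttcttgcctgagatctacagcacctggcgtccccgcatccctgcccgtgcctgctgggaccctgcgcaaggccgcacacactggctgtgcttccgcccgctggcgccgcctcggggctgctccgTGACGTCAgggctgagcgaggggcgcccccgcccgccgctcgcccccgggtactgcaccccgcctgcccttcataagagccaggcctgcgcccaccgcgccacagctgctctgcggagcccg
Chga had 150.4, 176, 43.5 and 12.3 CPM at steady state, 136, 349 and 185 at day 1, 179, 132 and 595 at day 4 and 274, 154 and 133 at day 7. The libraries of each condition differed widely, from 12.3 CPM in PBS day 7 replicate 2 to 595 CPM in day 4 replicate 3, and all groups overlapped. From steady state, the log2 fold change of Chga was 1.22 (SE 0.737, adjusted p = 0.423) to day 1, 1.66 (SE 0.741, adjusted p = 0.371) to day 4 and 0.97 (SE 0.736, adjusted p = 0.688) to day 7 in edgeR with Benjamini-Hochberg adjustment. The day 4 value was 0.70 without day 4 replicate 3 and ran up to 2.13 without another library. Chgb had 2.41, 0.875, 2.58 and 2.66 CPM at steady state, 4.04, 2.41 and 3.0 at day 1, 1.94, 3.13 and 1.93 at day 4 and 1.29, 2.15 and 1.57 at day 7. Its day 7 libraries lay below those of day 1, with a log2 fold change of −0.91 (SE 0.437, adjusted p = 0.225) that did not pass the edgeR test after Benjamini-Hochberg adjustment, and its other groups overlapped.

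Snap25 (ENSMUSG00000027273, chromosome 2, 136713453 to 136782428, plus strand), a SNARE protein of regulated vesicle release, had 1.29, 0.575, 1.05 and 0.291 CPM at steady state, 0.283, 0.604 and 0.586 at day 1, 0.452, 0.597 and 0.907 at day 4 and 0.328, 0.840 and 0.38 at day 7. All groups overlapped. Its log2 fold change was −0.74 (SE 0.559, adjusted p = 0.532) between day 1 and steady state and −0.65 (SE 0.548, adjusted p = 0.732) between day 7 and steady state, by edgeR with Benjamini-Hochberg adjustment. The 4 neuroendocrine members tested had a median log2 fold change from steady state of 0.36 at day 1, −0.08 at day 4 and −0.50 at day 7, and of −0.59 between day 7 and day 1. The medians of all genes tested in these comparisons are those given for the ciliated members.

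Chga stood apart from the other members in level, and its level followed that of the parathyroid hormone gene. Pth, which parathyroid cells secrete, had 122, 148, 18.1 and 2.91 CPM at steady state, 123, 162 and 98.7 at day 1, 126, 105 and 518 at day 4 and 228, 87.9 and 79.1 at day 7. The libraries fell in a similar order for Chga, with PBS day 7 replicate 2 lowest and day 4 replicate 3 highest for both genes. Chga spanned a 48.6-fold range and Pth a 178-fold range over the 13 libraries. Their log2 (CPM + 0.5) had a Pearson's r of 0.979 (permutation p = 1e-05, adjusted p = 0.00033) and a Spearman's rho of 0.835 (p = 0.00062, adjusted p = 0.0102). Without the 2 libraries of lowest Pth, r was 0.899, and within conditions, over deviations from the condition means, it was 0.971.

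With the parathyroid regulator Gcm2, Chga had an r of 0.844 (permutation p = 0.0001, adjusted p = 0.00132), a rho of 0.775 (adjusted p = 0.0218) and an r of 0.710 without the 2 farthest libraries. With the calcium-sensing receptor gene Casr, r was 0.726 (permutation p = 0.00766, adjusted p = 0.0421) and rho was 0.582 (adjusted p = 0.130), and r fell to 0.309 without the 2 farthest, so that this relation rests on those libraries. All 3 parathyroid markers had counts in every library, Gcm2 a single count in PBS day 7 replicate 2, and their sum ran from 3.44 to 151 CPM at steady state, from 107 to 175 at day 1, from 109 to 530 at day 4 and from 81.9 to 232 at day 7. Per kilobase of exon, the ratio of Chga to Pth was between 0.284 and 1.09, with a median of 0.366 and its highest value in PBS day 7 replicate 2, the library with the least of both. In its single-cell data of CD45- cells, the study reports a few parathyroid cells, marked by Gcm2, among the contaminants that it filtered out by cluster. Its methods state no such step for the bulk libraries. The part of parathyroid cells in the Chga levels was not tested. The thyroid markers summed to at most 4.65 CPM in any library.

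**Figure D4:**
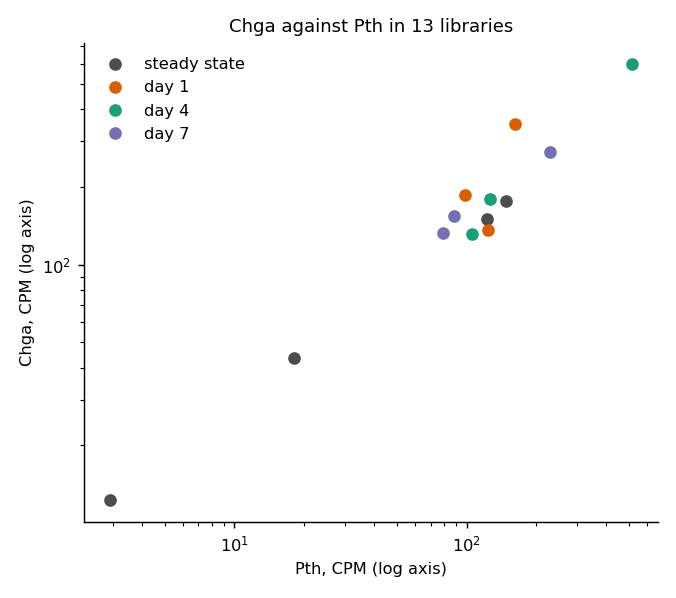
CPM of Chga (vertical log axis) against that of Pth (horizontal log axis), with 1 point for each of the 13 libraries and the condition in colour. The points rise together from PBS day 7 replicate 2 (12.3 and 2.91 CPM) to day 4 replicate 3 (595 and 518 CPM), the 2 lowest libraries are both of steady state, and the rest are mixed by condition.

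As a description of like patterns, the 5 genes of 14590 with a mean of at least 1 CPM whose log2 (CPM + 0.5) correlated best with Chga over the 13 libraries were Pth (r = 0.979), Vcpkmt (0.842), Shq1 (0.812), Kl (0.794) and Rhcg (0.777). Kl encodes klotho, a co-receptor of FGF23 that the parathyroid expresses. For Foxj1 they were St14 (r = 0.968), Lad1 (0.967), Cdhr5 (0.956), Gdap1l1 (0.956) and 4930539E08Rik (0.956). St14 encodes the epithelial membrane protease matriptase and Lad1 a protein of the epithelial basement membrane. Apart from Pth, which is tested above as a parathyroid marker, no p is given for these genes, since they were chosen by their r.

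Across the libraries, the correlations of the 9 members tested were not higher within the ciliated and neuroendocrine groups than between them. Foxj1 and Insm1, of different groups, had the highest correlation of the 36 pairs, at r = 0.907 (permutation p = 3e-05, adjusted p = 0.000495), with a rho of 0.874 (adjusted p = 0.00484) and an r of 0.884 without the 2 farthest libraries. Within the ciliated group, r for Foxj1 was 0.769 with Dnah5 (permutation test, adjusted p = 0.0156, rho = 0.731, 0.750 without the 2 farthest) and 0.682 with Trp73 (adjusted p = 0.0427, rho = 0.709, 0.774 without the 2 farthest), and these were the 2 of 10 ciliated pairs that passed. For Foxj1 with Ccdc39, r was −0.361 and rho −0.368 (permutation p = 0.224 and 0.215, adjusted p = 0.378 and 0.338), and r was −0.530 without the 2 farthest. Of the 6 neuroendocrine pairs 0 passed an adjusted p of 0.05 for r, at a median r of 0.112. Chgb with Insm1 passed for rho (0.698, permutation test, adjusted p = 0.0448) and not for r (0.667, adjusted p = 0.0514, 0.538 without the 2 farthest). Of the 20 pairs between the groups 5 passed for r, at a median r of 0.346 over all 20. Among those that passed, Ccdc39 with Chga was negative (r = −0.699, permutation test, adjusted p = 0.0421, and −0.358 without the 2 farthest). The ciliated pairs had a median r of 0.244. The 2 granins had an r of −0.285 with each other (rho −0.434, permutation p = 0.338 and 0.140, adjusted p = 0.545 and 0.252, and r = −0.265 without the 2 farthest). All these libraries share the mixture of cell types described above, whose part in the correlations was not tested.

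Levels were compared between members per kilobase of exon. Chga had the highest mean over the 13 libraries, at 70.3 CPM per kb. Its lowest library, at 4.45 CPM per kb, was above the highest library of every other member, of which Dynlrb2 in day 1 replicate 1 was the highest at 3.31 CPM per kb. Dynlrb2 (1.10), Chgb (0.842) and Foxj1 (0.771) followed, in CPM per kb, and then Trp73 (0.251), Ccdc39 (0.223), Insm1 (0.156), Snap25 (0.0928), Dnah5 (0.0662) and Neurod1 (0.0324). Below Chga, the libraries of each pair of neighbours in this order overlapped.

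The other motile cilium genes were taken from a list of 40 named genes, of which 39 were tested and Foxn4 was too low. Against steady state 0 of 39 were called at each day, with 2, 8 and 12 at an unadjusted p of 0.05 or less by edgeR at days 1, 4 and 7, beside 17.2%, 13% and 13.5% of all genes. DESeq2 called 0, 1 and 5 there. From steady state, the median log2 fold change was 0.16 at day 1, −0.11 at day 4 and −0.53 at day 7, where 9 genes were above 0 and 30 below. Between day 7 and day 1 the median was −0.86, with 7 above 0 and 32 below. Of these, 3 of 39 were called by edgeR with Benjamini-Hochberg adjustment, a share near the 8.13% of all genes tested. Tekt1, a tektin of the axonemal doublet, and Dnali1, a light intermediate chain of inner dynein arms, fell, with log2 fold changes of −3.58 (SE 0.755, adjusted p = 0.0145) and −2.22 (SE 0.532, adjusted p = 0.0243). Tekt1 had 1.98, 0.418 and 1.03 CPM at day 1 and 0.103, 0.143 and 0.0271 at day 7. Dnali1 had 1.41, 0.836 and 1.11 CPM at day 1 and 0.103, 0.246 and 0.38 at day 7. For neither gene did the day 1 and day 7 libraries overlap. At steady state Tekt1 ran from 0.194 to 0.899 CPM and Dnali1 from 0.325 to 0.839. The day 7 values rest on 13 counts of Tekt1 in total, with 1 in the lowest library, and on 31 of Dnali1. Tekt1 fell short of the threshold without day 1 replicate 1 or without day 7 replicate 3 (log2 fold changes of −2.94 and −3.26, adjusted p = 0.0622 and 0.0524), and Dnali1 without any one of 4 of the 6 libraries (adjusted p up to 0.0813, without day 1 replicate 1).

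Mns1, a gene of the motile axoneme that is also expressed in germ cells, rose from day 1 to day 7, with a log2 fold change of 4.75 (SE 0.869, adjusted p = 0.00844), and from day 4 to day 7, with 4.68 (SE 0.864, adjusted p = 0.0142), in edgeR with Benjamini-Hochberg adjustment. It was the 1 gene of 39 called between day 7 and day 4, where 3.9% of all genes tested were. Mns1 had 3.20, 3.78, 7.49 and 3.97 CPM at steady state, 1.36, 1.21 and 1.17 at day 1, 0.774, 1.55 and 1.52 at day 4 and 2.73, 72.5 and 25.5 at day 7. Day 7 replicates 2 and 3, the highest, were also the libraries with the highest sums of thymocyte markers, 2855 and 1253 CPM against 118 in day 7 replicate 1. The part of thymocytes in the Mns1 level was not tested. Between day 4 and day 1 edgeR called 0 of the 39 genes, with 4 at an unadjusted p of 0.05 or less and 0 called by DESeq2. Between day 7 and day 4 the call was lost without day 7 replicate 2, at 3.34 (adjusted p = 0.0562), and without day 4 replicate 2 or 3. The 3 genes of the list with the highest mean CPM, a rank that takes no account of gene length, were Tppp3, with 249.7 ± 113 CPM at steady state (mean ± SD, n = 4) and 273 ± 54.9 at day 7 (n = 3), Cfap43, with 32.2 ± 4.70 and 41.4 ± 15.7, and Rfx2, with 16.6 ± 5.10 and 14.2 ± 1.86. None of these 3 was called in any comparison.

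The other neuroendocrine genes were likewise 40 named genes, of which 34 were tested. Neurod2, Nkx2-2, Pax4, Myt1, Fev and Pcsk1n were too low. Against steady state 0 of 34 were called at each day, with 2, 6 and 13 at an unadjusted p of 0.05 or less by edgeR at days 1, 4 and 7, beside the same shares of all genes, and DESeq2 called 1, 0 and 6. From steady state, the median log2 fold change was −0.31 at day 1, −0.56 at day 4 and −1.05 at day 7, where 2 genes were above 0 and 32 below. Between day 7 and day 1 the median was −0.95, with 5 above 0 and 29 below.

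Of these genes, 5 of 34 were called between day 7 and day 1 by edgeR with Benjamini-Hochberg adjustment, 4 lower and 1 higher, where 8.13% of all genes were. Between day 7 and day 4 edgeR called 0 of 34, with 7 at an unadjusted p of 0.05 or less and 3 called by DESeq2, and between day 4 and day 1 it called 0, with 6 unadjusted and 2 called by DESeq2. Nts, which encodes the gut peptide neurotensin, had 10.7, 4.09 and 4.82 CPM at day 1 and 0.902, 1.11 and 0.732 at day 7, without overlap, and fell, with a log2 fold change of −2.83 (SE 0.548, adjusted p = 0.0103). It stayed past the threshold in all 6 fits without 1 library (adjusted p from 0.0180 to 0.0461), and lost the call with the epithelial marker level as a covariate (−2.25, adjusted p = 0.135), as did the other called genes of the list. Tph1, the serotonin-synthesizing enzyme of gut endocrine cells, had 2.49, 1.21 and 1.76 CPM at day 1 and 0.144, 0.184 and 0.217 at day 7, without overlap, and a log2 fold change of −3.31 (SE 0.801, adjusted p = 0.0251). The granin-like secretory protein gene Vgf, at 0.368, 1.81 and 1.89 CPM on day 1 and 0.205, 0.0819 and 0.0813 on day 7, had −3.41 (SE 0.968, adjusted p = 0.0477) and the synaptotagmin gene Syt1, a calcium sensor of vesicle release, at 32.2, 12.2 and 21.3 and 5.05, 4.71 and 3.34 CPM, had −2.33 (SE 0.668, adjusted p = 0.0496), both with all day 7 libraries below all day 1 libraries. At steady state Nts ran from 1.74 to 6.62 CPM, Tph1 from 0.550 to 6.27, Vgf from 0.350 to 2.19 and Syt1 from 6.35 to 56.1. Car8 encodes a carbonic anhydrase-related protein, and the study lists it for its neural mimetic population. Car8 rose from day 1 to day 7, with a log2 fold change of 1.23 (SE 0.343, adjusted p = 0.0454 in edgeR). Its day 7 libraries, at 40.3, 30.9 and 18.5 CPM, were above those of day 1, at 13, 7.57 and 17.6. They overlapped those of steady state, at 18.9 to 31.6 CPM, and of day 4, at 22.9 to 26.5. The day 7 values rest on 24 counts of Tph1 in total and on 17 of Vgf, with 3 in the lowest library of Vgf. Vgf, Syt1, Tph1 and Car8 lost the call in at least 4 of the 6 fits without 1 library (adjusted p up to 0.157, for Vgf without day 7 replicate 2), and the number called was then 1 or 2. Nts and Tph1 were also called among any of the 4 conditions, as was Mns1 of the cilium genes. By mean CPM, again without regard to length, the highest genes of the list were Cpe, a carboxypeptidase that trims prohormones, with 216 ± 54.8 CPM at steady state and 147 ± 63.7 at day 7, Calcb, a gene of the calcitonin gene-related peptides, with 41.1 ± 22.6 and 12.7 ± 6.44, and Car8.

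**Figure D5:**
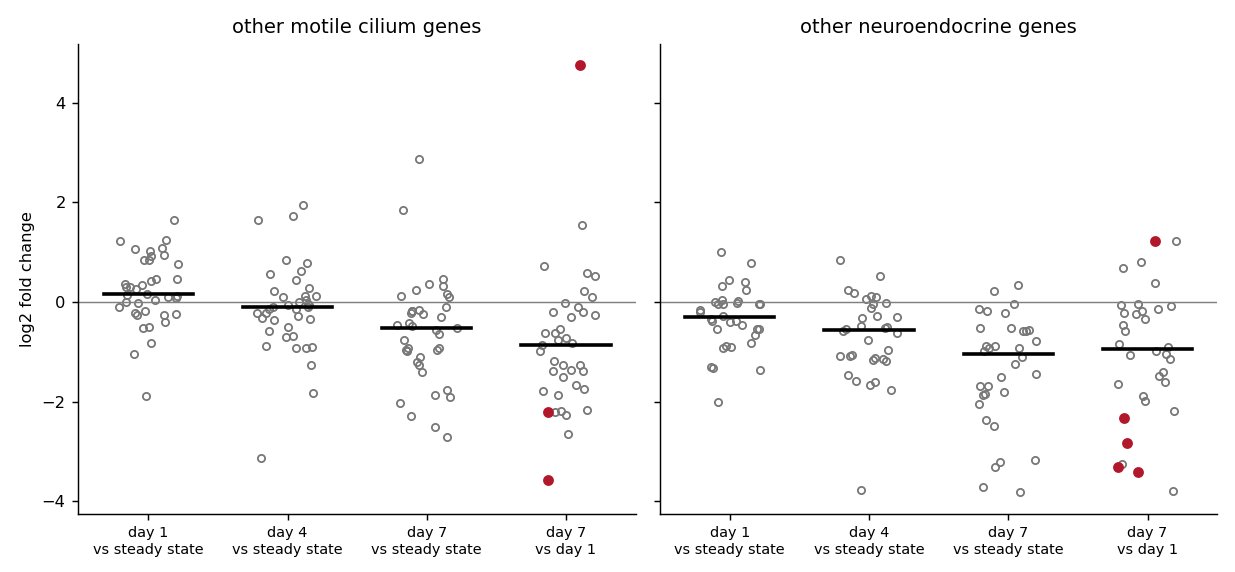
Log2 fold change (vertical axis) of the 39 other motile cilium genes and the 34 other neuroendocrine genes tested, as points, in 4 comparisons (horizontal axis), with the list median as a bar and genes called at an adjusted p of 0.05 or less in red. The medians fall from 0.16 and −0.31 at day 1 to −0.53 and −1.05 at day 7 against steady state, and red points appear only between day 7 and day 1, where Mns1 is the one far above 0.

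Promoter windows were found in the RefSeq table for 7 of the 10 members, Trp73 with 2 windows, Dynlrb2, Ccdc39, Dnah5, Chga, Chgb and Neurod1. Each window was searched on both strands for the X-box letters GTTGCC, the forkhead motif TGTTTAC, the E-box CAGATG, a second E-box that reads CAGCTG, the cyclic AMP response element TGACGTCA, the TATA box TATAAA and part of the element bound by REST, TTCAGCACC. The core TGACG of the cyclic AMP response element was also counted on its own, so that it overlaps every longer match. GTTGCC occurred in 12.5% of all 32851 windows, in Dynlrb2 and the upstream window of Trp73 among the members, in 18 of 41 windows (43.9%) of the other motile cilium genes and in 9 of 44 (20.5%) of the other neuroendocrine genes. TGACGTCA occurred in 1.79% of all windows, in Chgb, and in 4 of 44 windows (9.09%) of the other neuroendocrine genes. TGACG occurred in 20.8% of all windows, in Chga and Chgb, and in 19 of 44 (43.2%) of the other neuroendocrine genes. TATAAA, in 13.6% of all windows, was found in Chga alone of the members with a window. CAGCTG (16.3% of all) was in Chga, Chgb and the upstream window of Trp73, and CAGATG (17.2%) in Dnah5. TGTTTAC (3.65%) and TTCAGCACC (0.371%) were in none of the 8 members' windows. A match is a run of letters and not a bound site.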

How the data were processed

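Bulk RNA-seq was performed by the authors on polyA RNA of CD45- thymic cells in 13 libraries. Reads were trimmed with Trimmomatic 0.38, aligned to GRCm38.p5 with STAR 2.7.0e and assigned to GENCODE genes with featureCounts 1.6.3 (default settings), per the labels and the study's methods. The deposited values are raw gene counts. The table's gene length column was used only for levels per kilobase, and the Ensembl identifiers were matched to symbols for 53274 of 53379 genes. The PBS columns were assigned to steady state as a group, since their day and replicate match no single sample's label.

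Counts were filtered with filterByExpr (minimum count 10, minimum total 15), which kept 19984 genes, scaled by TMM and fitted in edgeR 4.0.16 (R 4.3.3) with one model over the 4 conditions. Quasi-likelihood F-tests were adjusted by Benjamini-Hochberg over all genes tested, and the standard error is the absolute log2 fold change divided by the square root of F. The procedure was tested on simulated data. Totals of 15721866 to 52056896 counts per library set the precision, and counts of 3 or fewer were treated as a floor. The study's methods call the bulk replicates biological, while the labels do not name the animals, and p-values measure the spread between these samples. No 2 libraries were copies, since the closest pair of one condition differed by a chi-square of 43.6 per degree of freedom.

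Alternatives were DESeq2 1.42.0, RLE scaling, other filters, fits of 2 conditions, the replicate block, leaving out each library, and 2 covariates. The members and the gene lists were chosen with earlier results of these data known. All members were named, together with every listed gene called, the 3 of each list with the highest mean CPM, and the 5 genes most like Foxj1 and Chga. Correlations used log2 (CPM + 0.5) with 100000 permutations of all libraries regardless of condition. Promoter windows came from RefSeq.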

Additional observations from a re-analysis of the deposited data

Results flagged for a closer look

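At steady state, Dixon's ratio (the distance of an extreme library from its nearest neighbour, as a share of the spread of the group) was computed for each of the 10 members. It passed the critical value for 4 libraries in 1 of them, Chgb. PBS day 4 replicate 2 had 0.875 CPM of Chgb against 2.41 to 2.66 CPM in the other 3 PBS libraries, a ratio of 0.860. Chance gives 0.5 such values among 10 tested. The cause was not tested.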

How the results depend on the processing

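Over the alternatives, 672 of 738 recomputed values of the 54 member log2 fold changes kept their direction and their side of the threshold, 16 lost and 6 gained the call, and 44 changed sign, of which 0 were called. The number of members called between day 7 and day 1, 2 as reported, was 1 of the 6 members left with at least 10 counts in every library, 0 with the epithelial marker level as a covariate, 0 with the tag family as a covariate and from 0 to 0 without 1 library. With the replicate block it was 2 (Foxj1 −2.30, Insm1 −2.88). DESeq2 called 2 members between day 7 and steady state (Foxj1 −1.82, adjusted p = 0.0313, and Insm1 −2.70, adjusted p = 0.0106), 2 between day 7 and day 4 and 2 among any of the 4 conditions. Without 1 library, the number ran from 0 to 1 between day 7 and steady state (1 without PBS day 4 replicate 2) and from 0 to 2 among any of the 4 conditions (1 without PBS day 1 replicate 2, 2 without PBS day 4 replicate 2). Against steady state, no paired analysis was possible because the PBS columns carry no replicate number of the labels. Same-numbered libraries after TBI did not deviate together (correlations of −0.710 to 0.207 over 9 pairs, mean −0.195, against 0.0851 for 18 other pairs). With 3 libraries a day, and tags that often differ between same-numbered libraries, these correlations cannot exclude a pairing. The replicate block changed no other call of a member. It changed the number called between day 7 and day 1 from 3 to 1 for the other motile cilium genes and from 5 to 3 for the other neuroendocrine genes, and with the epithelial covariate both were 0. DESeq2 called 12 and 7 there, and the fits without 1 library from 1 to 4 and from 1 to 2.

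The sign changes were as follows. For Foxj1 between day 4 and steady state the value was 0.0044 by DESeq2, 0.0074 with RLE normalization, 0.034 in a fit of the 2 conditions and 0.39 with the tag family. The tag family also gave 0.082 for Insm1 between day 4 and steady state, 0.34 for Trp73, 0.14 for Dnah5 and −0.36 for Chga between day 4 and day 1, and 0.11 for Trp73 between day 7 and day 1. The epithelial covariate gave −0.054 for Dnah5 between day 4 and steady state, 0.14 for Snap25 between day 7 and steady state, 0.37 for Trp73 and 0.090 for Chga between day 7 and day 1, and 0.066 for Foxj1, 0.48 for Trp73, −0.026 for Ccdc39 and 0.68 for Snap25 between day 7 and day 4. Without 1 library, the range against steady state was −0.021 to 0.74 for Dnah5 and −0.17 to 0.90 for Insm1 at day 1, −0.39 to 0.48 for Foxj1, −0.17 to 0.65 for Dnah5, −0.14 to 0.37 for Chgb, −0.61 to 0.12 for Snap25 and −0.79 to 0.32 for Insm1 at day 4, and −0.27 to 0.29 for Ccdc39 at day 7. It was −0.33 to 0.15 for Trp73, −0.36 to 0.058 for Dnah5 and −0.53 to 0.91 for Chga between day 4 and day 1, −0.64 to 0.22 for Chga and −0.48 to 0.32 for Snap25 between day 7 and day 1, and −1.07 to 0.27 for Chga between day 7 and day 4. The cause was not tested. Every member but Chga had at most 206 counts in each library, which limits the differences that can be detected.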
